A study of Homo sapiens with 3 samples.

Results

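The 10 genes described here are 7 keratins (KRT7, KRT8, KRT18, KRT19, KRT20, KRT23 and KRT80) and 3 markers of the differentiated colon epithelium (VIL1, CEACAM1 and LGALS4). They were taken by symbol from a table of 23131 genes and other transcripts, and each of the 10 had a row. The study measured RNA of HCT-116 cells, an established human colon carcinoma line whose APC is intact and whose β-catenin (CTNNB1) carries a mutation that protects it from degradation. It held 3 libraries, 1 for each transfection condition: cells given no siRNA, cells given a pool of scrambled siRNA, and cells given a pool of siRNA against APC. Transfections were made on 2 consecutive days and cells were harvested 48 hours after the second. The library without siRNA is named untransfected in its title and mock in its treatment label, and is called untransfected below. The table holds the anti-APC siRNA and the untransfected library. Cells given scrambled siRNA were not analysed here, so silencing of APC and the presence of any siRNA cannot be told apart. If the cells without siRNA got no transfection reagent, an effect of the transfection itself cannot be told apart either.

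Keratins are the intermediate filament proteins of epithelial cells, and each filament is built from pairs of a type I and a type II chain. In the lining of the intestine KRT8 is the main type II chain, while KRT18, KRT19 and, in the upper crypt and on the surface, KRT20 are the type I chains. KRT7 is a type II chain of many ductal epithelia and is usually scarce in the colon. VIL1 (villin) bundles the actin cores of brush border microvilli, CEACAM1 is a cell adhesion molecule of the apical surface, and LGALS4 (galectin-4) is a lectin of the enterocyte apical membrane. APC is the scaffold of the complex that marks β-catenin for degradation, and its loss is common in colorectal cancer.

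Levels are FPKM, fragment numbers scaled to transcript length and to library size, so levels of different genes can be set side by side. With 1 library per condition there was no replicate error and no test, and every difference below compares these 2 libraries and not the conditions. Differences are log2 ratios of the anti-APC siRNA over the untransfected level, and a ratio of at least 1.5-fold at a mean of at least 1 FPKM is used as a rule of size. The targeted gene checked the labels. APC stood at 3.43 FPKM in the anti-APC siRNA library and 9.15 FPKM in the untransfected library, 37.5% of the untransfected level, while CTNNB1 stood at 178 and 177 FPKM. Of 12063 rows with a mean of at least 1 FPKM and a level above 0 in both libraries, 309 were at least 1.5-fold higher in the anti-APC siRNA library and 797 were at least 1.5-fold lower, with a median log2 ratio of -0.05. That split was 410 higher and 534 lower when the median of rows at a similar level was subtracted. The median log2 ratio was -0.11 from 3 to 10 FPKM and 0.02 from 300 to 1000 FPKM. The share of rows at least 1.5-fold lower also varied with level. It was 18% from 1 to 3 FPKM, 2.25% from 30 to 100 FPKM and 8.37% from 300 to 1000 FPKM.

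In these HCT-116 cells 3 simple keratins were abundant, 3 others were at a few FPKM, and KRT20, CEACAM1, LGALS4 and VIL1 were below 1 FPKM in both libraries. KRT8, KRT18 and KRT19 together made up 96.1% of the summed FPKM of 55 keratins in the anti-APC siRNA library and 96.8% in the untransfected library. Of the 6 genes with a mean of at least 1 FPKM, none was at least 1.5-fold higher in the anti-APC siRNA library, against 2.56% of all rows at that level. KRT7 and KRT80 were at least 1.5-fold lower, 2 of 6 against 6.61% of all rows, and KRT8, KRT18, KRT19 and KRT23 stayed within 1.5-fold. None of the 6 was 2-fold apart, against 0.953% of all rows at least 2-fold higher and 1.37% at least 2-fold lower. The median log2 ratio of the 6 was -0.43. In bulk RNA, fewer cells expressing a gene and less of its RNA per cell cannot be told apart.

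**Figure D1:**
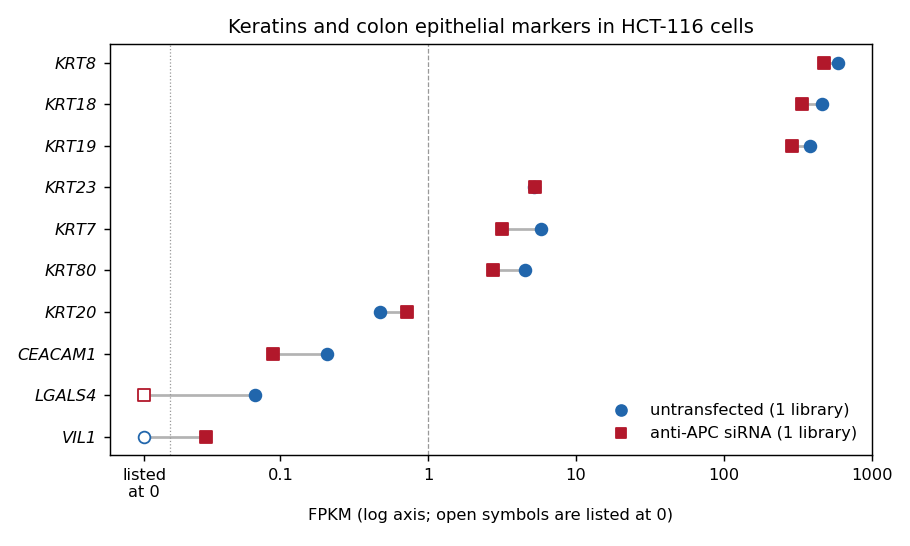
FPKM of the 10 genes in the untransfected library (blue circles) and the anti-APC siRNA library (red squares), 1 library each, on a log axis; open symbols stand for a level listed at 0 and the dashed line for 1 FPKM. KRT8, KRT18 and KRT19 sit between 289 and 588 FPKM, KRT23, KRT7 and KRT80 between 2.73 and 5.81 FPKM, and the blue circle of KRT23 lies under its red square.

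The order of the levels changed little between the libraries. In untransfected cells it ran from KRT8 through KRT18, KRT19, KRT7, KRT23, KRT80, KRT20, CEACAM1 and LGALS4 to VIL1. In the anti-APC siRNA library KRT23 stood above KRT7, and VIL1 stood above LGALS4. Without replicates it is not known which neighbours in this order differ beyond their spread, and the members between 2.73 and 5.81 FPKM are close to one another.

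KRT8, the only abundant type II chain, was at 478 FPKM in the anti-APC siRNA library and 588 FPKM in the untransfected library, a log2 ratio of -0.30. KRT18, its usual type I partner, was at 337 and 461 FPKM, a log2 ratio of -0.45. KRT19, a type I chain that is unusual in lacking most of the tail domain, was at 289 and 384 FPKM, a log2 ratio of -0.41. The anti-APC siRNA library thus held 81.3%, 73.2% and 75.3% of the untransfected levels of KRT8, KRT18 and KRT19, all lower and none past 1.5-fold. Among the 215 rows between 300 and 1000 FPKM, where the interquartile range of the log2 ratios ran from -0.12 to 0.13, 33 rows were as low as KRT8 or lower. For KRT18 that number was 25, and the log2 ratio of KRT19 was matched or passed by 27.

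Of these 3 abundant keratins, KRT8 and KRT18 have many processed pseudogenes, copies of the spliced RNA elsewhere in the genome, and KRT19 has few. Short reads from KRT8 and KRT18 in particular may not have a single place to align. Of all stretches of 36 bases in the canonical transcript, 52.3% for KRT8 also lay in at least 1 of 46 numbered KRT8 pseudogenes of the annotation. For KRT18 the share was 58.6% over 64 pseudogenes, and for KRT19 it was 6.20% over 3. With any other annotated gene counted, the shares at 36 bases were 54.0% for KRT8, 71.9% for KRT18 and 6.42% for KRT19. The largest single share of KRT18, 24.7%, was with KRT8, some of whose annotated transcripts overlap KRT18 on the opposite strand. At 50 bases, 39.2% of KRT8, 54.3% of KRT18 and 1.79% of KRT19 stretches lay in any other annotated gene, pseudogene or not. Of the other members, KRT20 and LGALS4 shared no stretch of 36 bases with any other gene, and KRT80, KRT23 and CEACAM1 shared 1.02%, 5.70% and 7.18% of theirs. KRT7 shared 13.9%, most of it (12.01% of its stretches) with the overlapping gene KRT7-AS, which has no row in the table. Without a stated use of strand, reads from KRT7 and from an antisense partner cannot be told apart. VIL1 shared 46.6%, all with USP37, which overlaps its canonical transcript on the opposite strand and has a row at 13.2 FPKM in the anti-APC siRNA library and 12.2 FPKM in the untransfected library. The VIL1 locus in the table ends at 219314248 and overlaps no other row. The read length and the handling of reads with several alignments are not given in the sources used here.

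The likeness is shown with 80 bases of KRT18 and of KRT19, each beside a copy, read from the human genome (GRCh37) and the GENCODE transcripts of that build, 5′ to 3′ on the strand of the gene. Capitals mark the bases at which a keratin and its pseudogene differ: 0 for KRT18 and KRT18P11 and 5 for KRT19 and KRT19P2. The keratin stretches are exonic, in exon 6 of 7 of KRT18 (chr12:53346042-53346121, plus strand) and in exon 4 of 6 of KRT19 (chr17:39680638-39680717, minus strand). The copies lie on the plus strand, at chrX:91715746-91715825 for KRT18P11 and at chr12:95228485-95228564 for KRT19P2.
KRT18: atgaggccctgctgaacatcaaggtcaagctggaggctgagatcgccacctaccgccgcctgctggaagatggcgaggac
KRT18P11: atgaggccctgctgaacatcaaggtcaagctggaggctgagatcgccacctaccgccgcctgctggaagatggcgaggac
KRT19: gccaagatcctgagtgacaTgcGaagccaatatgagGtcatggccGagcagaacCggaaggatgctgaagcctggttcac
KRT19P2: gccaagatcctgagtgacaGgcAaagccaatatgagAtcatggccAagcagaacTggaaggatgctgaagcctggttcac

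Only 2 of these pseudogenes had rows of their own in the table, and neither was lower in the anti-APC siRNA library. KRT8P41, 89.7% identical to KRT8 over 1462 aligned bases, was at 8.73 FPKM in the anti-APC siRNA library and 8.23 FPKM in the untransfected library, a log2 ratio of 0.08. KRT19P2, 89.98% identical to KRT19 over 968 aligned bases, was at 1.67 and 1.48 FPKM, a log2 ratio of 0.17. KRT18P11, 95.9% identical to KRT18 over 1282 bases, had no row. Reads shared with copies may have entered or been lost from the levels of KRT8 and KRT18, and their part in the result was not tested.

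KRT7, a type II chain, was at 3.14 FPKM in the anti-APC siRNA library and 5.81 FPKM in the untransfected library, 1.85-fold lower with a log2 ratio of -0.89. KRT80, a type II chain found at desmosomes and in the cell cortex of several epithelia, was at 2.73 and 4.54 FPKM, 1.66-fold lower with a log2 ratio of -0.73. These are the 2 least abundant of the 3 type II chains above 1 FPKM. Of the 3222 rows between 3 and 10 FPKM, 68 were as low as KRT7 or lower and 130 as low as KRT80 or lower. In that range 8.07% of rows were at least 1.5-fold lower and the interquartile range of the log2 ratios ran from -0.31 to 0.08. With the median of that range subtracted the log2 ratios were -0.79 for KRT7 and -0.63 for KRT80. With 1 FPKM added to both levels KRT80 came to -0.57, which is inside 1.5-fold, and KRT7 to -0.72. From the smallest steps in the table these levels stand for about 117 and 237 reads of KRT7 and about 242 and 441 reads of KRT80.

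KRT23, a divergent type I chain, was at 5.30 FPKM in the anti-APC siRNA library and 5.23 FPKM in the untransfected library, a log2 ratio of 0.02. It was the one member above 1 FPKM that was not lower in the anti-APC siRNA library as deposited, although its log2 ratio was -0.04 when both libraries were rescaled to the same sum. It lies at a similar level to KRT7 and KRT80, whose log2 ratios were -0.89 and -0.73.

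**Figure D2:**
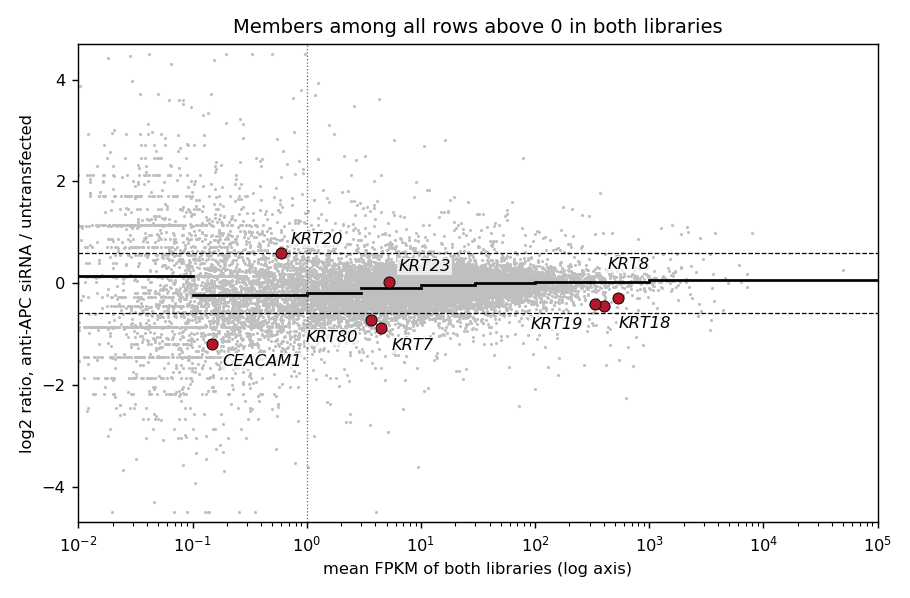
Log2 ratio of the anti-APC siRNA over the untransfected level against the mean FPKM (log axis) for rows above 0 in both libraries (grey), with 8 of the 10 genes in red, dashed lines at 1.5-fold, a dotted line at 1 FPKM and black bars for the median of each range of levels. KRT7 and KRT80 lie below the lower dashed line, KRT8, KRT18 and KRT19 between it and 0, and the grey cloud widens toward low levels; LGALS4 and VIL1 have no ratio, log2 ratios beyond the vertical axis are drawn at its edge, and rows with means beyond the horizontal axis are not drawn.

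KRT20, the type I chain most restricted to differentiated gastrointestinal epithelium, was at 0.718 FPKM in the anti-APC siRNA library and 0.475 FPKM in the untransfected library. That is 1.51-fold higher, a log2 ratio of 0.60, but the mean is below 1 FPKM and the levels stand for about 30 and 21 reads. Of the 818 rows between 0.5 and 1 FPKM, 74 were as high as KRT20 or higher, which is 9.05%, and 24% were at least 1.5-fold lower. With 1 FPKM added to both levels the log2 ratio of KRT20 was 0.22. The direction of KRT20 was opposite to that of the abundant keratins, but it rests on about 30 and 21 reads. Whether this difference exceeds the spread was not tested, and no change is read from it.

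The other 3 markers were near the floor of the table. CEACAM1 was at 0.0895 FPKM in the anti-APC siRNA library and 0.206 FPKM in the untransfected library, about 7 and 18 reads, and carried the status LOWDATA. Its log2 ratio was -1.20 as deposited and -0.15 with 1 FPKM added. LGALS4 was listed at 0 in the anti-APC siRNA library and at 0.0673 FPKM in the untransfected library, which is about 2 reads. VIL1 was listed at 0.0313 FPKM in the anti-APC siRNA library and at 0 in the untransfected library. No direction is given for LGALS4 or VIL1. Among rows with a mean under 1 FPKM, 18.3% were at least 1.5-fold higher and 30.3% at least 1.5-fold lower.

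The relatives of these 3 markers separated by family. None of the 12 CEACAM genes of the list reached a mean of 1 FPKM, 7 were listed at 0 in both libraries, and the highest was CEACAM19 at 0.738 and 0.744 FPKM in the anti-APC siRNA and the untransfected library. Of 14 galectins, 3 had a mean of at least 1 FPKM and 2 of those were at least 1.5-fold lower, against 6.61% of all rows. LGALS1, a secreted lectin of many cell types, was at 271 and 410 FPKM, a log2 ratio of -0.60, and LGALS3, a galectin found inside and outside epithelial cells, was at 41.4 and 64.1 FPKM, a log2 ratio of -0.63. Both came inside 1.5-fold once the median log2 ratio of all rows was subtracted. Of 8 genes of the villin and gelsolin family, 4 had a mean of at least 1 FPKM and none passed 1.5-fold. The highest of these actin-severing and actin-binding proteins were FLII at 55.7 and 60.8 FPKM and CAPG at 39.95 and 54.97 FPKM.

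Summed over all keratins, the anti-APC siRNA library held 1150.1 FPKM and the untransfected library 1481 FPKM. The 26 type II keratins summed to 487 FPKM in the anti-APC siRNA library and 600.2 FPKM in the untransfected library, and the 29 type I keratins to 664 and 881 FPKM. The ratio of type II to type I was 0.733 and 0.681, so the summed RNA level of type I keratins was the higher in both libraries. Protein was not measured. Between KRT8 and KRT18 alone the ratio was 1.42 and 1.28, and KRT19 stood at 0.857 and 0.833 of KRT18. These ratios rest largely on KRT8 and KRT18, and the part of reads shared with other genes in them was not tested. Of the type I keratins, 6 had a mean of at least 1 FPKM and none passed 1.5-fold.

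The other type I keratins at this level were KRT10, KRT15 and KRT222. KRT10, best known from the differentiated layers of the epidermis, was at 16.8 FPKM in the anti-APC siRNA library and 16.3 FPKM in the untransfected library. The row of TMEM99 has the same locus and was at 16.6 and 17.6 FPKM, and how reads were divided between KRT10 and TMEM99 was not tested. KRT15, a basal-layer keratin, was at 6.01 and 7.88 FPKM, a log2 ratio of -0.39. KRT222, a short keratin-like protein, was at 4.32 and 4.44 FPKM. No other type II keratin reached a mean of 1 FPKM, and the nearest was the hair keratin KRT81 at 0.939 and 0.613 FPKM, about 41 and 30 reads. Of the 55 keratins, 2 type II and 5 type I genes were listed at 0 in both libraries.

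**Figure D3:**
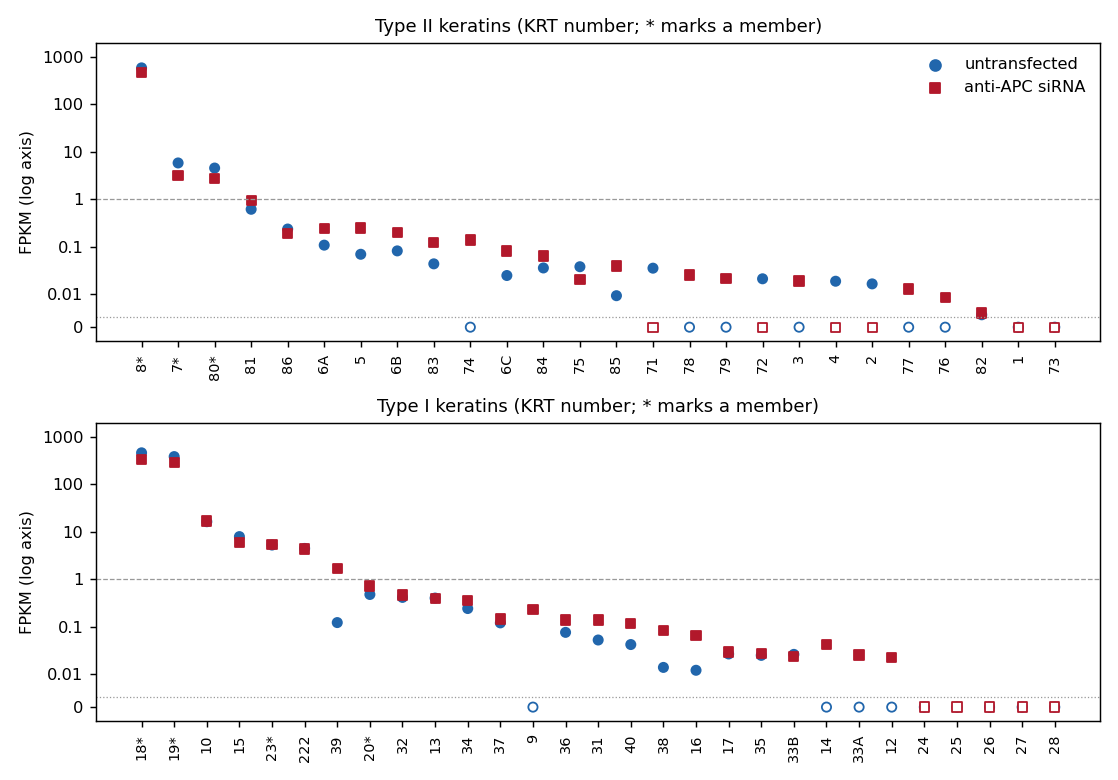
FPKM (log axis) of the 26 type II and 29 type I keratins in the untransfected library (blue circles) and the anti-APC siRNA library (red squares), ordered by mean level, with open symbols for levels listed at 0 and a dashed line at 1 FPKM. KRT8, KRT18 and KRT19 lie far above all others, and KRT39 shows the widest gap between the libraries among keratins with a mean above 0.5 FPKM.

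The 10 genes lie on 4 chromosomes, and each is alone at its place in the table. On chromosome 12 (GRCh37, GENCODE genes), KRT80 lies at 52562780 to 52585798 on the minus strand, KRT7 at 52626304 to 52645970 on the plus strand, KRT8 at 53290971 to 53343738 on the minus strand and KRT18 at 53342655 to 53346690 on the plus strand. Some annotated KRT8 transcripts start beyond the start of KRT18 on the opposite strand, but the KRT8 locus in the table ends at 53298868, short of KRT18. On chromosome 17, KRT20 lies at 39032141 to 39041494, KRT23 at 39078952 to 39093898 and KRT19 at 39679869 to 39684560, all on the minus strand. VIL1 lies on chromosome 2 at 219283844 to 219318018 on the plus strand. CEACAM1 lies on chromosome 19 at 43011456 to 43065386 and LGALS4 at 39292311 to 39303585, both on the minus strand.

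The keratin clusters differed in what lay around the members. Between KRT80 and KRT18 on chromosome 12 the table has 29 rows, 27 of them keratins, and 4 had a mean of at least 1 FPKM: KRT80 and KRT7 were at least 1.5-fold lower and KRT8 and KRT18 were within 1.5-fold. Between KRT222 and JUP on chromosome 17 it has 65 rows, of which 13 had a mean of at least 1 FPKM. Of those, 5 were at least 1.5-fold higher and none at least 1.5-fold lower, against 2.56% and 6.61% of all rows. The 5 are not keratins. They are LOC730755 and 4 genes with a keratin-associated protein symbol, KRTAP3-1, KRTAP2-1, KRTAP2-2 and KRTAP2-4. Keratin-associated proteins are matrix proteins of hair. The 5 genes were chosen for naming after their values were seen.

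KRTAP3-1 was at 7.94 FPKM in the anti-APC siRNA library and 0.651 FPKM in the untransfected library, a log2 ratio of 3.61 from about 111 and 10 reads. LOC730755, which lies between KRTAP2-2 and KRTAP2-4, was at 46.1 and 18.0 FPKM, a log2 ratio of 1.36. Whether it belongs to the same family was not checked. The 28 rows with a keratin-associated protein symbol, which leave out LOC730755, summed to 16.5 and 4.89 FPKM. Only 4 of them had a mean of at least 1 FPKM, and 6 were listed at 0 in both libraries. At any level 17 were higher and 5 lower in the anti-APC siRNA library. These counts include rows at the floor, such as KRTAP4-1 with about 1 read in each library, and are not read as a direction. Some genes of this multigene family resemble one another, so the values of single genes are uncertain, and how far reads were split among them was not tested. KRT39, a hair keratin between KRT23 and KRTAP3-1 that was also chosen after its values were seen, was at 1.67 and 0.121 FPKM, a log2 ratio of 3.79 from about 67 and 5 reads. KRT23, which borders this stretch, had a log2 ratio of 0.02, and KRT15 and KRT19, farther along the cluster, had log2 ratios of -0.39 and -0.41.

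**Figure D4:**
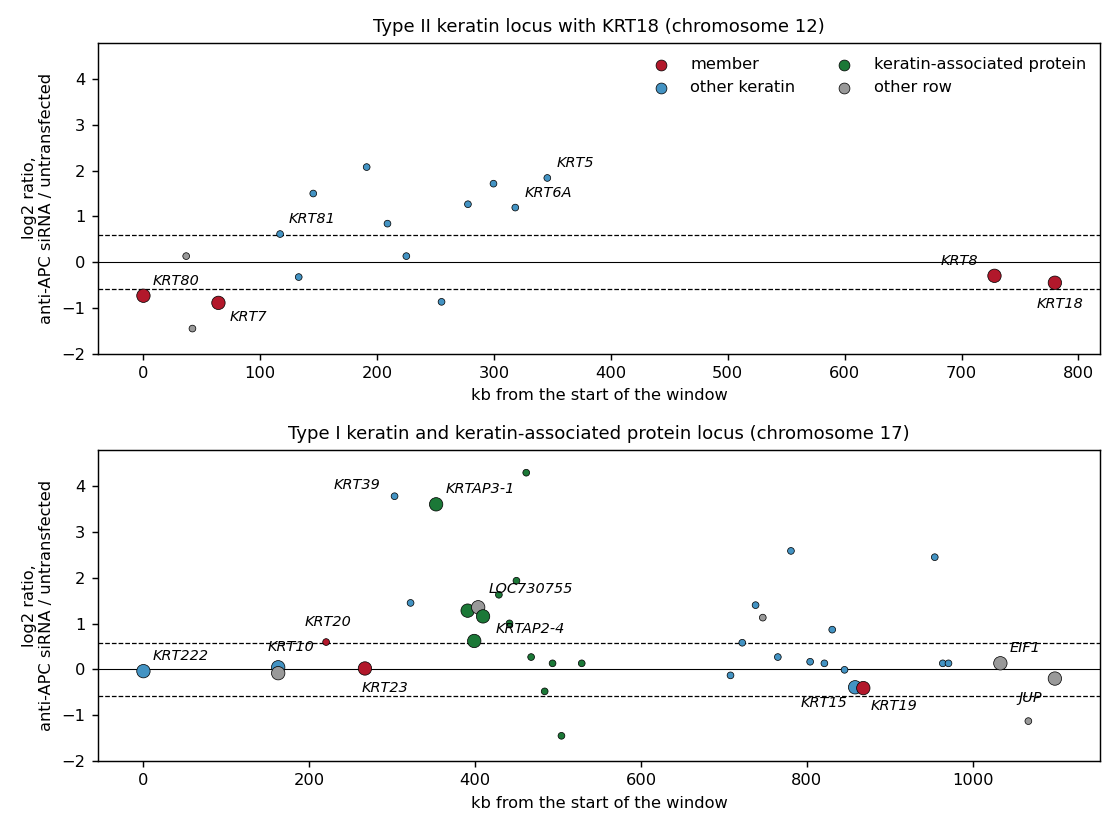
Log2 ratio of the anti-APC siRNA over the untransfected level against distance in kilobases from the start of the window, for rows above 0 in both libraries between KRT80 and KRT18 (top) and between KRT222 and JUP (bottom). Large points have a mean of at least 1 FPKM, dashed lines mark 1.5-fold, and the large points above the upper line are KRTAP3-1, KRTAP2-1, KRTAP2-2, KRTAP2-4 and LOC730755.

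Genes that work with keratins did not move as a block. Of 16 desmosome and keratin linker genes, 12 had a mean of at least 1 FPKM. Of those, 2 were at least 1.5-fold lower and none at least 1.5-fold higher, against 6.61% and 2.56% of all rows. DSC3 became at least 1.5-fold higher when the median at a similar level was subtracted. The median log2 ratio of the 12 was -0.22. PPL (periplakin), which ties keratin filaments to the cell cortex, was at 4.18 FPKM in the anti-APC siRNA library and 9.41 FPKM in the untransfected library, a log2 ratio of -1.17. PKP3 (plakophilin 3), a desmosomal plaque protein, was at 16.6 and 25.9 FPKM, a log2 ratio of -0.64. The most abundant were within 1.5-fold: the desmosomal cadherin DSG2 at 97.7 and 90.9 FPKM, and DSP (desmoplakin), which anchors keratins to desmosomes, at 75.9 and 64.1 FPKM.

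Among 13 other intermediate filament genes, 5 had a mean of at least 1 FPKM, with a median log2 ratio of 0.08. VIM (vimentin), the intermediate filament of mesenchymal cells, was 1.61-fold higher, though not past 1.5-fold with 1 FPKM added, at 2.17 FPKM in the anti-APC siRNA library and 1.348 FPKM in the untransfected library. LMNB2, a nuclear lamin, was lower at 74.3 and 125 FPKM, a log2 ratio of -0.75. The other lamins, LMNA at 158 and 149 FPKM and LMNB1 at 136 and 129 FPKM, were within 1.5-fold.

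Most other genes of the mature absorptive cell were below 1 FPKM. Of 31 brush border and absorptive enterocyte genes, KRT20 and VIL1 among them, 9 had a mean of at least 1 FPKM and 10 were listed at 0 in both libraries, including the digestive enzyme gene SI and the fatty acid binding protein gene FABP1. Of the 9, 8 were lower in the anti-APC siRNA library, and the median log2 ratio was -0.32. Only 1 was at least 1.5-fold lower (2 when both libraries were rescaled to the same sum), against 6.61% of all rows. That 1 was CA2 (carbonic anhydrase 2), at 13.1 FPKM in the anti-APC siRNA library and 29.99 FPKM in the untransfected library, a log2 ratio of -1.19. The most abundant was EZR (ezrin), the linker of membrane and microvillar actin, at 699 and 859 FPKM, a log2 ratio of -0.30, followed by its partner SLC9A3R1 at 44.3 and 55.3 FPKM, a log2 ratio of -0.32.

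Goblet and enteroendocrine markers were mostly below 1 FPKM, while the stem and crypt base list was mixed. Of 12 goblet cell genes only REP15 had a mean of at least 1 FPKM, at 1.23 and 1.59 FPKM, followed by FCGBP at 0.233 and 0.382 FPKM, and the mucin gene MUC2 was at 0.0141 and 0.00860 FPKM. Of 12 enteroendocrine genes only SCG2 did, at 7.36 FPKM in the anti-APC siRNA library and 4.51 FPKM in the untransfected library, a log2 ratio of 0.71, followed by TPH1 at 0.984 and 0.584 FPKM. Of 12 stem and crypt base genes, 6 had a mean of at least 1 FPKM, with a median log2 ratio of -0.00. The most abundant were the cell division cycle associated gene CDCA7 at 51.3 FPKM in the anti-APC siRNA library and 55.2 FPKM in the untransfected library, and the Polycomb gene BMI1 at 18.5 and 19.6 FPKM. Of the 6, 1 was at least 1.5-fold higher, against 2.56% of all rows. It was ZNRF3, a membrane ubiquitin ligase that removes WNT receptors and is itself a WNT target, at 6.84 and 3.89 FPKM, a log2 ratio of 0.81. LGR5 was listed at 0 in the anti-APC siRNA library and at 0.0271 FPKM in the untransfected library.

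The epithelial identity of the cells was plain in both libraries. Of 13 epithelial genes 11 had a mean of at least 1 FPKM, with a median log2 ratio of -0.15. None was at least 1.5-fold higher and 3 were at least 1.5-fold lower, against 2.56% and 6.61% of all rows. EPCAM, an epithelial adhesion molecule, was at 170 and 190 FPKM, the tight junction gene CLDN7 at 50.98 and 70.2 FPKM, and the intestinal transcription factor CDX2 at 6.77 and 7.33 FPKM, in the anti-APC siRNA and the untransfected library. The 3 lower genes were ELF3, an epithelial transcription factor, at 8.90 and 23.3 FPKM with a log2 ratio of -1.39, the tight junction gene CLDN4 at 25.8 and 44.4 FPKM with a log2 ratio of -0.78, and CDH1 (E-cadherin) at 12.1 and 19.0 FPKM with a log2 ratio of -0.65. Over all these lists without the 10 genes, 57 of 207 had a mean of at least 1 FPKM, with a median log2 ratio of -0.19. Of the 57, 3 were at least 1.5-fold higher and 10 at least 1.5-fold lower, against 2.56% and 6.61% of all rows.

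Markers of other tissues were below 1 FPKM in both libraries, except CD68 and COL1A1. The 8 leukocyte genes summed to 5.61 FPKM in the anti-APC siRNA library and 9.38 FPKM in the untransfected library, nearly all of it the lysosomal protein gene CD68 at 5.01 and 8.91 FPKM, a log2 ratio of -0.83. The next leukocyte gene was CD14 at 0.172 and 0.182 FPKM, and the leukocyte antigen gene PTPRC was at 0.00812 and 0.0148 FPKM. The 8 fibroblast genes summed to 3.18 and 2.91 FPKM, of which COL1A1 made up 3.08 and 2.85 FPKM and THY1 0.0493 and 0.0269 FPKM. The 6 endothelial genes summed to 0.120 and 0.144 FPKM, with KDR at 0.0610 and 0.0557 FPKM and VWF at 0.0322 and 0.0587 FPKM.

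**Figure D5:**
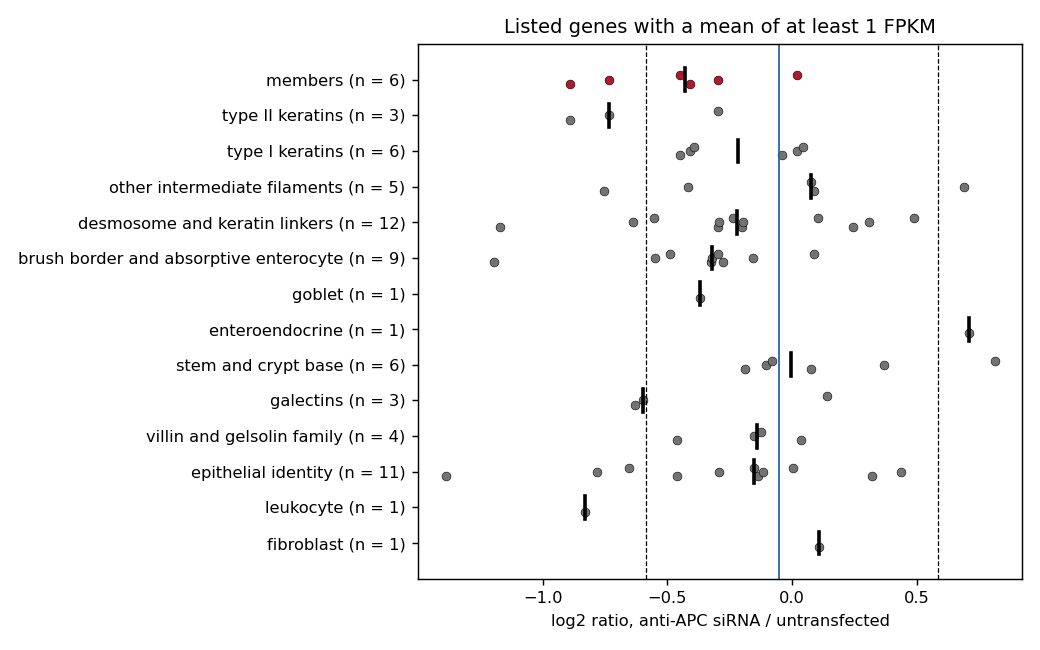
Log2 ratio of the anti-APC siRNA over the untransfected level for each listed gene with a mean of at least 1 FPKM (points, the 10 genes' own in red), with the median of each list (black bar), the median of all rows at that level (blue line, -0.05) and 1.5-fold (dashed). The 6 red points have a median of -0.43, below those of the desmosome list at -0.22 and the brush border list at -0.32. Lower medians are those of the galectin list at -0.60 (3 genes), the type II keratin list at -0.73 (3 genes, all members) and the leukocyte list at -0.83 (1 gene). All other lists drawn have higher medians.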

How the data were processed

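The deposited table holds FPKM values, which per the labels the authors made with Cufflinks and Cuffdiff on hg19. Versions, aligner, annotation, read length and use of strand are not given in the sources used here. Libraries were TruSeq single-read. The labels name a HiSeq instrument and the study's methods a Genome Analyzer II. The table also holds the authors' own comparison (fold changes, test statistics, p and q values and calls), which was not used.

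Members and gene lists were chosen with earlier results of these data known. Genes named were all members, APC, the 2 most abundant of each list and up to 3 past 1.5-fold in each direction, and any other gene was chosen after its values were seen. Ratios were taken without a pseudocount in Python 3.11.15 with numpy 2.4.6 and pandas 2.3.3, and rows at 0 in a library got none. The scripts were tested on simulated data. Figures used matplotlib 3.10.9 and pseudogene alignments Biopython 1.88.

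Depth is not stated. The commonest log2 ratio of rows with a mean under 0.3 FPKM, 0.13 in 371 of 2819 rows (within 0.001), is the ratio of the values of 1 read. With GENCODE transcript lengths it gave about 22900000 reads for the anti-APC siRNA library and 25100000 for the untransfected library. Read numbers in the text are estimates from it and carry no interval. A single row, MIR4461, held 50.3% and 49.2% of summed FPKM in these libraries. Of 23131 rows, 269 had the status FAIL, and a level listed at 0 can be a failed estimate.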

Additional observations from a re-analysis of the deposited data

How the results depend on the processing

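No paired analysis was possible because each condition had 1 library and no test was made, and for the same reason no replicate could be left out. Over a pseudocount of 0.1 or 1 FPKM, subtraction of the median log2 ratio, rescaling to the same sum, and subtraction of the median at a similar level (added after seeing the data), the log2 ratio ran from -0.95 to -0.72 for KRT7, -0.80 to -0.57 for KRT80, -0.36 to -0.25 for KRT8, -0.51 to -0.40 for KRT18, -0.47 to -0.36 for KRT19 and 0.22 to 0.84 for KRT20. KRT23 changed sign only with rescaling, to -0.04. CEACAM1 moved to -0.15 with a pseudocount of 1 FPKM. With that pseudocount, 1 member and 526 of all rows were at least 1.5-fold lower. Without a filter on low values, 1 member (KRT20) was higher, all rows gave 1084 higher and 2078 lower, and the lists without the members 26 and 25. At a mean of at least 5 FPKM, 0 members were lower, and all rows gave 186 higher and 347 lower. At 2-fold, 0 members were lower, all rows gave 115 higher and 165 lower, and the lists 0 and 3. The other settings left these counts within 1.5 times. The causes were not tested, beyond the fewer or more rows that each filter and threshold admits. Depth limits KRT20, CEACAM1, LGALS4 and VIL1, which rest on few reads.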
